A study of Gallus gallus with 14 samples.

Results

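The genomic loci that give rise to PIWI-interacting RNAs (piRNAs) were compared between chicken primordial germ cells (PGCs) grown in culture and embryonic gonads. Clusters called in any of 4 small RNA libraries were merged into 1 locus wherever they overlapped by at least 1 bp, which gave 3074 loci. Merging the clusters of all libraries of the series gave 4034 loci. Of the 3074 loci, 851 (27.7%) had a called cluster in each of the 4 libraries, and only these were tested. The median locus was 7450 bp long and the longest 222716 bp. By position in the galGal5 assembly, 812 lay on autosomes, 396 on Z, 93 on W, including scaffolds assigned to W, and 1773 on other scaffolds. The latter are unplaced or assigned to a chromosome without a position, Z included, and count 2 mitochondrial loci.

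E7PGC denotes male PGCs isolated from gonads of Arbor Acres broiler embryos at embryonic day 7 (E7) and then expanded in vitro. E11G denotes whole left gonads of male embryos at day 11 (E11), each library being a pool of several embryos and holding germ cells together with somatic cells. Each group had 2 libraries. E11G1 came from Cobb 500 broilers and a MiSeq instrument, E11G2 from Leghorn layers and a Solexa instrument, and both E7PGC libraries from the Solexa instrument, so within E11G the effects of breed and instrument cannot be told apart, nor can those of stage, culture, breed and cell mixture between the groups. All libraries were made from small RNA oxidised with sodium periodate, which spares RNAs with a methylated 3′ end. The E11G libraries, being of different breeds, came from different embryos, while no label states that the E7PGC libraries came from separate cultures, and p-values measure the spread between these libraries only. The headers of both E7PGC cluster lists name an input of E6 PGCs, where the labels give E7.

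PiRNAs are germline small RNAs that guide PIWI proteins to transposon transcripts and other targets. Most are cut from long precursor transcripts of discrete genomic clusters, which can be transcribed from 1 strand, from a central promoter in both directions, or from both strands along the same stretch. Primary piRNAs usually begin with uridine, read as thymine at position 1 in sequencing (1T), whereas the partners made by reciprocal slicing in the ping-pong cycle carry adenine at position 10 (10A). In birds the male has 2 Z chromosomes and the female carries Z and W.

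The cluster lists rested on 10786087 reads in E7PGC1, 7925928 in E7PGC2, 1394576 in E11G1 and 7872371 in E11G2. The E7PGC reads were of fewer kinds, with 483058 and 255025 distinct sequences against 549450 and 1264661 in E11G. The minimum density for calling a cluster differed between the lists, from 7.95 normalized hits per kb in E7PGC2 to 11.8 in E11G1. A locus without a call in a list has no value there and is not shown to be silent. In RNA-seq of E11 gonads from other animals (JA57 broilers), the germ cell markers DDX4 (22.6 and 17.6 FPKM) and DAZL (62.7 and 58.3 FPKM) stood beside the Sertoli cell gene AMH (3797 and 4696 FPKM). The other 2 genes listed for Sertoli cells, SOX9 (15.9 and 13.7 FPKM) and DMRT1 (56.3 and 50.8 FPKM), were far below AMH, in the range of the germ cell markers. The haemoglobin genes were uneven, with HBA1 at 1253 and 1347 FPKM, HBAD at 490 and 569, HBE at 9.90 and 12.8 and HBBA at 0 in both libraries. The ovarian aromatase CYP19A1 was at 116 FPKM in the first library and 0.0137 in the second, although both are labelled male. No E7PGC RNA-seq was analysed here, so a difference per germ cell and a difference in germ cell content cannot be told apart.

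The deposited lists also mark matches to MYB and RFX4 binding motifs on both strands of each cluster. A-MYB is a transcription factor that drives piRNA clusters in mouse and rooster testes, and RFX proteins bind promoters of ciliary and spermatogenic genes. The letters matched by each motif are shown because the classes of loci described here differed in them, with the core CNGTT of the MYB matches or the leading bases of the RFX4 matches in capitals and the forms of a motif in order of frequency.
A-MYB, form 1: aggCAGTTgg
A-MYB, form 2: tggCAGTTgg
A-MYB, form 3: agaCAGTTgg
A-MYB, form 4: tgaCAGTTgg
Mybl1_1: aaCCGTTa
RFX4_1, form 1: GTTGCcatg
RFX4_1, form 2: GTTGCcaag
RFX4_2, form 1: GTAACcatg
RFX4_2, form 2: GTATCcagg
Over all 3074 loci, 6.08% held an A-MYB match, 2.80% a Mybl1_1 match, 16.9% an RFX4_1 match and 22.3% an RFX4_2 match. Such a match is a run of letters within a called cluster and was not tested as a binding site, and the share expected of stretches of equal length elsewhere in the genome was not computed.

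At the level of whole libraries, clusters in E11G held a smaller share of all piRNA hits, with less 1T and less 10A, than clusters in E7PGC. Clusters covered 70.8% and 68.8% of the hits in E7PGC1 and E7PGC2 and 59.3% and 63.7% in E11G1 and E11G2. The direction of that share depended on the clusters counted. On assembled chromosomes it was 29.4% and 19.2% in E7PGC and 26.4% and 28.5% in E11G, with overlap, and in loci called in all 4 libraries the difference was -0.60 points. Clusters numbered 2070 and 2055 in E7PGC against 1511 and 1802 in E11G, but at 1 common density minimum the order was reversed, with 1346 and 1331 against 1456 and 1617. The 1T share, weighted by hits, was 67.2% ± 0.42 (SD, n = 2) in E7PGC and 56.7% ± 2.91 (SD, n = 2) in E11G, and the individual libraries stood at 66.9%, 67.5%, 54.6% and 58.7%. On autosomes alone the groups overlapped, with 60.0% and 58.3% in E7PGC and 55.2% and 59.1% in E11G (exact permutation p = 0.667). On scaffolds the 1T share was 67.4% and 69.7% in E7PGC and 54.3% and 57.8% in E11G. For 10A the libraries stood at 50.5% and 52.3% in E7PGC and at 43.6% and 44.0% in E11G, a difference of -7.62 points. On autosomes alone the 10A difference was -2.53 points, without overlap. Over all clusters the groups did not overlap in any of these measures, but with 2 libraries against 2 an exact two-sided permutation test cannot give a p below 0.333, the value found for each of them.

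A larger share of clusters was dual-strand in E11G, but not on assembled chromosomes. Dual-strand clusters made up 33.4% and 32.7% of the clusters in E7PGC and 50.5% and 38.6% in E11G, without overlap between the groups (exact p = 0.333). On assembled chromosomes they made up 28.8% and 24.1% in E7PGC and 30.4% and 21.9% in E11G, with overlap. By clustered hits dual-strand clusters held 33.4% and 42.7% in E7PGC and 55.6% and 41.8% in E11G over all clusters, with overlap (exact p = 0.667), and 31.5% and 33.4% against 50.5% and 37.2% on assembled chromosomes, without it (exact p = 0.333). Mono-directional clusters, with piRNAs from 1 strand, made up 56.7% and 52.6% in E7PGC and 40.0% and 54.1% in E11G, and here the groups overlapped. Bi-directional clusters, with the strands diverging, were at 9.95% and 14.7% in E7PGC and at 9.46% and 7.27% in E11G. The lists give the share of hits on the main strand or strands, which in a bi-directional cluster can count both strands. This share was 78.2% and 77.3% in E7PGC and 73.3% and 77.2% in E11G, so that E11G2 lay close to E7PGC2. The median over clusters was 80.7% and 82.8% in E7PGC and 74.7% and 79.4% in E11G, whereas on assembled chromosomes it was higher in E11G (85.6% and 89.1% against 81.9% and 84.8%). Median cluster length was 7802 and 7040 bp in E7PGC and 7501 and 7196 bp in E11G, with overlapping groups.

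**Figure D1:**
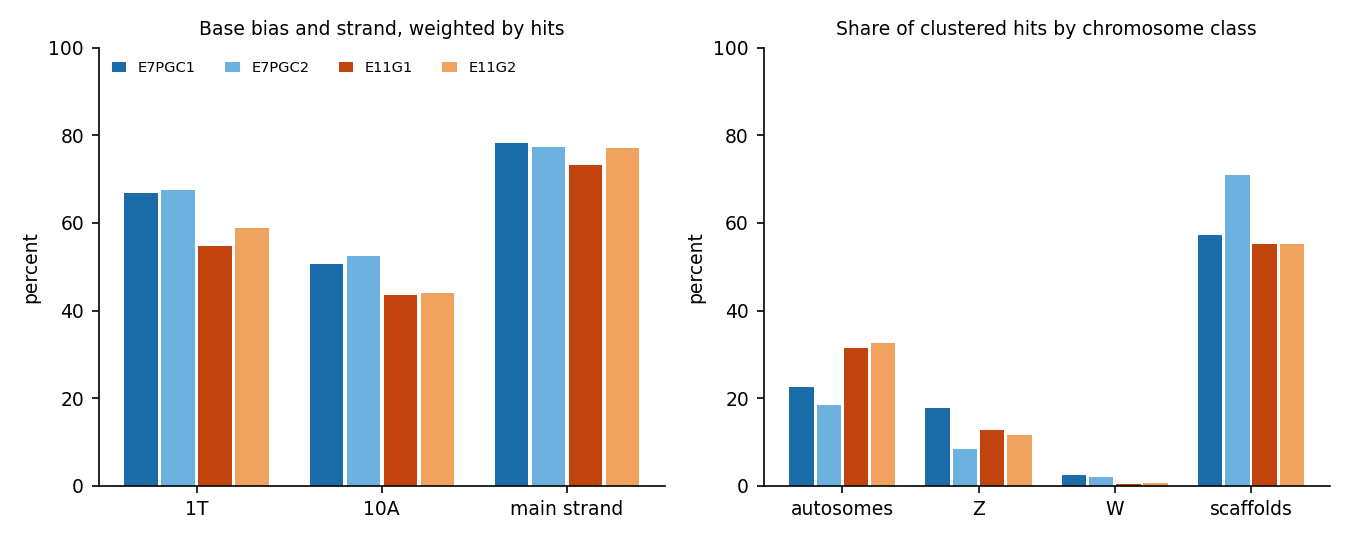
Percentages per library, 1 bar for each of the 4 libraries. The E11G bars lie below the E7PGC bars for the hit-weighted 1T share (54.6% and 58.7% against 66.9% and 67.5%) and the 10A share (43.6% and 44.0% against 50.5% and 52.3%), and the W share of clustered hits is near 0 in E11G.

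The chromosomes contributed unequally. Autosomal clusters held 22.6% and 18.5% of the clustered hits in E7PGC and 31.5% and 32.6% in E11G. W clusters held 2.38% and 2.06% in E7PGC and 0.438% and 0.602% in E11G, although all samples are labelled male. Both groups of values were separate (exact p = 0.333 for each). Z clusters held 17.7% of the clustered hits in E7PGC1, 8.39% in E7PGC2, 12.8% in E11G1 and 11.7% in E11G2, and the groups overlapped. The value of E7PGC1 includes the locus over RPL17, described below.

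Loci called in both E11G libraries only were more often autosomal than those called in both E7PGC libraries only, which were more often on W, whereas an excess of Z loci in E7PGC was seen only at the lists' own density minimums. In all, 600 loci were called in both E7PGC libraries and in neither E11G library, and 341 in both E11G libraries and in neither E7PGC library. A further 528 and 361 loci were called in a single library of E7PGC or of E11G, and 393 had other patterns. Loci shared by at least 1 library of each group numbered 1244, which were 52.4% of the E7PGC loci and 63.9% of the E11G loci. Of the 600 loci of E7PGC, 172 (28.7%) lay on Z, 39 (6.50%) on W and 73 (12.2%) on autosomes. Of the 341 loci of E11G, 22 (6.45%) lay on Z, 6 on W and 117 (34.3%) on autosomes. Among the 851 loci called in all 4 libraries, 52 (6.11%) were on Z, 7 on W and 170 (20%) on autosomes. These counts are descriptions of calls made at unequal density minimums. At 1 common minimum, an alternative whose classes were added after seeing the data, 227 loci were called in both E7PGC libraries only and 345 in both E11G libraries only. Of these, 17 (7.49%) and 26 (7.54%) lay on Z, 26 (11.5%) and 5 (1.45%) on W, and 44 (19.4%) and 134 (38.8%) on autosomes. Z clusters as a whole numbered 335 and 278 in E7PGC against 121 and 131 in E11G at the lists' own minimums and 91 and 80 against 118 and 119 at the common one, so their order was reversed.

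**Figure D2:**
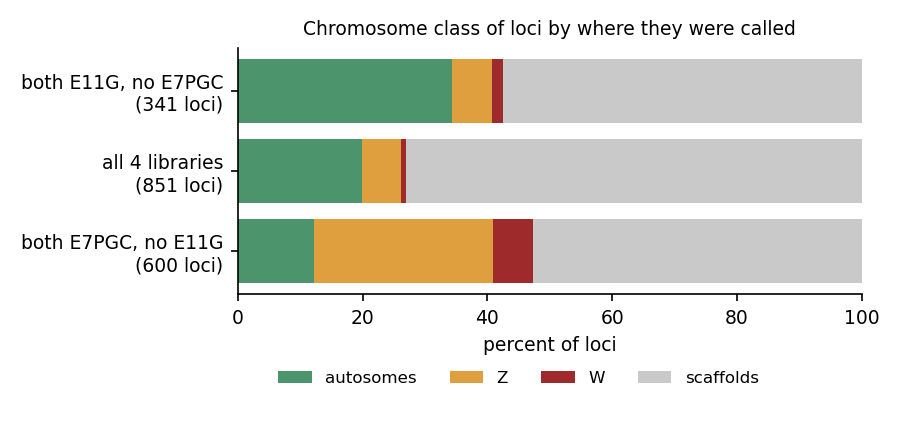
Percent of loci (horizontal axis) on autosomes, Z, W and scaffolds, as coloured segments, for the 600 loci called in both E7PGC libraries only, the 851 called in all 4 and the 341 called in both E11G libraries only. Calls are at each list's own density minimum. The autosomal segment is 12.2% of the E7PGC bar and 34.3% of the E11G bar, and the Z segment is 28.7% and 6.45%, which become 7.49% and 7.54% at a common minimum.

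Loci called in both libraries of 1 group alone contributed modestly to the piRNA pool. The 600 loci held 10.8% and 9.03% of the clustered hits in E7PGC1 and E7PGC2, and the 341 loci held 7.61% and 8.04% in E11G1 and E11G2. The 851 loci called everywhere held 68.7% and 78.3% of the clustered hits in E7PGC and 84.7% and 80.2% in E11G. Median hits of the 600 loci were 76.9 and 61.1, and those of the 341 loci 104 and 128. The motifs differed between the sets as well. An RFX4_2 match was found in 41.6% of the 341 E11G loci, 30.7% of the 851 shared loci and 13.3% of the 600 E7PGC loci. A-MYB matches were found in 11.1%, 10.9% and 2.0% of them, and Mybl1_1 matches in 0, 72 and 4 loci. At the common density minimum RFX4_2 was found in 132 of 345, 221 of 673 and 33 of 227 of the corresponding loci, and A-MYB in 27, 81 and 5. Per 100 kb, RFX4_2 matches numbered 5.80 in the E11G loci, 3.25 in the shared loci and 2.02 in the E7PGC loci, the same order as the shares. No test was made of these shares of loci. Of all clusters on assembled chromosomes, 5.40% and 5.59% in E7PGC and 6.19% and 4.87% in E11G held an A-MYB match, with overlap. For RFX4_2 the values there were 19.2% and 17.3% against 23.5% and 22.6%, without overlap.

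The longest of the named loci called in E7PGC only was chr18:1863415-1954654, between MYH10, a non-muscle myosin heavy chain gene, and PIK3R5, a regulatory subunit gene of PI3-kinase gamma. It gave 2732 hits in E7PGC1 and 1641 in E7PGC2 from both strands, with 1T shares of 52.8% and 56.6%. The lists marked 17 RFX4_1 and 9 RFX4_2 matches in its 91240 bp. The locus chrZ:1004509-1025904, beside the thiolase gene ACAA2, gave 1355 and 869 hits, of which 83.9% and 86.6% were from the plus strand. Hits at chrZ:64297299-64307421, over the microRNA gene MIR7481, were 1299 and 855. On chromosome 1, chr1:2820495-2861963 gave 1231 and 911 hits with an excess of 10A (58.7% and 60.8%) over 1T (44.0% and 35.9%), and held 3 A-MYB matches of the form aggCAGTTgg.

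In E11G only, the highest locus was chr4:41877394-41881658, far from any annotated gene with a symbol, with 643 hits in E11G1 and 1030 in E11G2. Nearly all came from the plus strand (99.5% and 99.9%), and they carried 10A (77.7% and 78.9%) far more often than 1T (28.4% and 21.4%). The opposite composition was seen at chrZ:30914944-30923911, between the melanin synthesis gene TYRP1 and MPDZ, where 1T was 58.8% and 70.5% and 10A 26.3% and 18.6%, with 518 and 942 hits. A pair of dual-strand loci on chromosome 5, chr5:56937951-56959684 and chr5:57013023-57037867, lay beyond the phosphatase gene CDKN3. The first gave 632 and 348 hits and the second 533 and 396, and each held 4 RFX4_1 matches.

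The 851 loci called in all 4 libraries were tested for normalized hits, which are reads shared over their genomic places, per 1000000 reads of the library, summed over a locus. Only called stretches enter this sum, which was not divided by their length. Loci that hold copies of the same sequence share reads, so counts of loci here and below need not be counts of independent changes. On log2(hits + 1), limma found 158 loci past an adjusted p of 0.05 (18.6% of the loci tested), of which 100 (11.8%) were higher and 58 (6.82%) lower in E11G. At an unadjusted p under 0.05 there were 273. With loci set to 0 where they were not called, more were lower than higher, 647 against 416 of all 3074 loci and 674 against 439 of the 2113 called in both libraries of a group. The median log2 difference was 0.08, and at 523 of the 851 loci the libraries of the groups did not overlap. With 2 libraries against 2, a share of 0.333 would not overlap if the libraries were exchangeable. Each of the 158 loci was among those 523. The counts rested on both E11G libraries. Without E11G1, which also leaves libraries of 1 sequencer only, 0 of 1001 loci passed limma's adjusted threshold and 247 had an unadjusted p under 0.05, and without E11G2 the numbers were 0 of 931 and 219. Without E7PGC1 305 loci passed. In these fits the lone library of a group was assumed to vary like the other group.

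**Figure D3:**
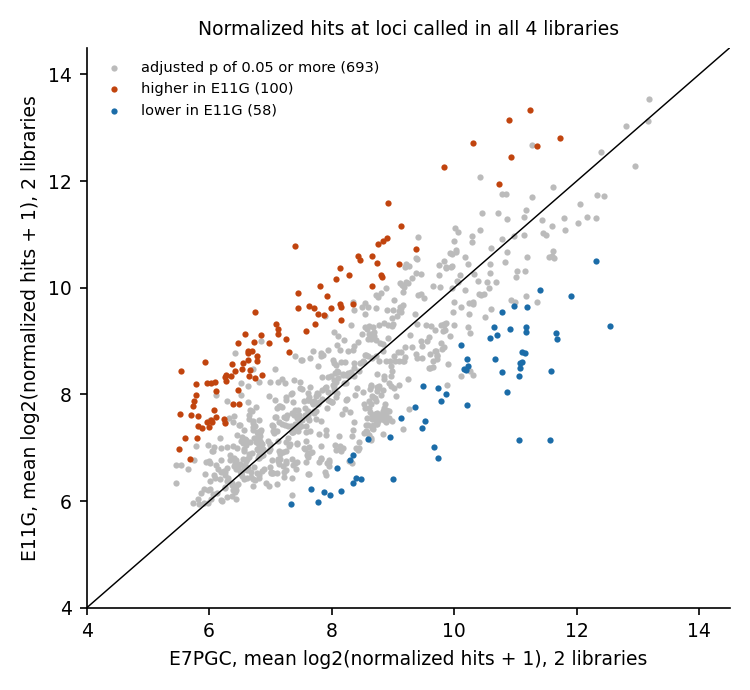
Mean log2(normalized hits + 1) of the 2 E11G libraries (vertical axis) against that of the 2 E7PGC libraries (horizontal axis) for the 851 loci called in all 4 libraries. Coloured points are the 100 loci higher and the 58 lower in E11G by limma, and the line marks equal values.

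Replicate libraries resembled each other more than libraries across groups. The median absolute log2 difference in hits over the 851 loci was 0.46 between the E7PGC libraries and 0.36 between the E11G libraries. Across the groups it ranged from 0.55 (E7PGC1 and E11G2) to 0.87 (E7PGC2 and E11G1). Calls by chromosome class were uneven. On autosomes 37 of 170 loci were higher and 11 lower, with a median log2 difference of 0.55, and on Z 13 of 52 were higher and 5 lower. On W 0 of 7 loci were higher and 4 lower, with a median of -1.44, and on scaffolds 50 of 622 were higher and 38 lower, with a median of -0.04.

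The largest rise was at chr1:45552427-45585829, which covers USP44, a ubiquitin protease of the mitotic checkpoint. Hits were 141 in E7PGC1, 200 in E7PGC2, 1432 in E11G1 and 2171 in E11G2. Both gonad libraries were far above both PGC libraries, and the ratio of the means was 10.5 (log2 difference 3.38 ± 0.38 SE, adjusted p = 0.0138 by limma). The strand pattern differed as well, from a plus-strand call in E7PGC1 and a minus-strand call in E7PGC2 to dual-strand calls in both E11G libraries. The transcript of USP44 was at 8.91 and 8.90 FPKM in E11 gonads. The locus holds RFX4_1 and RFX4_2 matches, among them GTTGCcatg at chr1:45575528-45575536.

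Several further rises were on Z. The locus chrZ:8398030-8490312, between the chemokine gene CCL19 and the ATPase gene VCP, had 573, 412, 3695 and 2552 hits in the same order of libraries (log2 difference 2.66 ± 0.35 SE, adjusted p = 0.0211 by limma). Its called length was 54046 and 43935 bp in E7PGC and 92267 and 87654 bp in E11G, a difference that did not pass the test of length. Farther along Z, 2 dual-strand loci lay close to each other, the first of them over the microRNA gene MIR7482-6. At chrZ:34286613-34342894 the libraries gave 2505, 1442, 11306 and 7217 hits, and at chrZ:34392932-34422942 they gave 1220, 680, 5992 and 4020. Both passed the test (log2 differences of 2.25 ± 0.40 and 2.43 ± 0.40 SE, adjusted p = 0.0211 by limma for each). At both, E7PGC1 was above E7PGC2 and E11G1 above E11G2, and the groups did not overlap.

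The MYB matches of these neighbouring Z loci fell into series of identical letters, 2 of them at a near-constant spacing, and all are shown for that reason, written as the lists give them, with the core CNGTT or its reverse complement AACNG in capitals.
A-MYB at chrZ:34296898-34296907: ccAACTGtca
A-MYB at chrZ:34312266-34312275: ccAACTGtca
A-MYB at chrZ:34327365-34327374: ccAACTGtca
A-MYB at chrZ:34342775-34342784: ccAACTGtca
A-MYB at chrZ:34312149-34312158: ccAACTGcca
A-MYB at chrZ:34342658-34342667: ccAACTGcca
A-MYB at chrZ:34407159-34407168: ccAACTGcca
Mybl1_1 at chrZ:34301116-34301123: taaCGGTT
Mybl1_1 at chrZ:34316197-34316204: taaCGGTT
Mybl1_1 at chrZ:34331583-34331590: taaCGGTT
Mybl1_1 at chrZ:34396096-34396103: taaCGGTT
Mybl1_1 at chrZ:34411130-34411137: taaCGGTT
The 4 ccAACTGtca matches followed each other at 15368, 15099 and 15410 bp, and the Mybl1_1 matches of the first locus at 15081 and 15386 bp. In the second locus the Mybl1_1 matches were 15034 bp apart. The ccAACTGcca matches were 30509 bp apart in the first locus and 64501 bp from there to the second. Reads that fit several copies of such a repeated unit are shared among them, so the values along these loci are not independent of each other.

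Away from genes with symbols, the locus chr2:52947015-52960995 rose from 44.1 and 46.7 hits in E7PGC to 338 and 355 in E11G, the second largest rise (log2 difference 2.9 ± 0.32 SE, adjusted p = 0.0138 by limma). It stayed a plus-strand locus in all 4 libraries, while its called length went from 3519 and 4123 bp to 12978 and 13961 bp (adjusted p = 0.0471 by limma for length). Its 10A share fell from 48.9% and 42.9% to 32.9% and 32.1%. At chr1:75305553-75329349, upstream in coordinate order of the Hippo pathway factor gene TEAD4 by 213 kb, hits were 68.4, 52.7, 405 and 376 (log2 difference 2.68 ± 0.36 SE, adjusted p = 0.0211 by limma). This locus was mono-directional in both E7PGC libraries and bi-directional in both E11G libraries, and its called length rose from 7453 and 6407 bp to 22135 and 23797 bp (adjusted p = 0.0442 by limma).

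The other 5 of the 10 largest rises were on scaffolds assigned to chromosomes Z, 2 and 25, and ranged from a log2 difference of 2.41 to 2.80. The 2 loci on Z scaffolds, of 26181 and 16844 bp, had 121, 93.1, 887 and 621 hits and 101, 75.5, 611 and 402 hits. Those on chromosome 2 scaffolds, of 12942 and 3527 bp, had 208, 144, 1129 and 812 hits and 66.6, 44.3, 329 and 261 hits. On the chromosome 25 scaffold, a locus of 13749 bp had 64.5, 141, 501 and 635 hits, and its 1T share fell from 70.0% and 65.8% to 45.8% and 47.6%. In each of them both E11G libraries were above both E7PGC libraries.

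**Figure D4:**
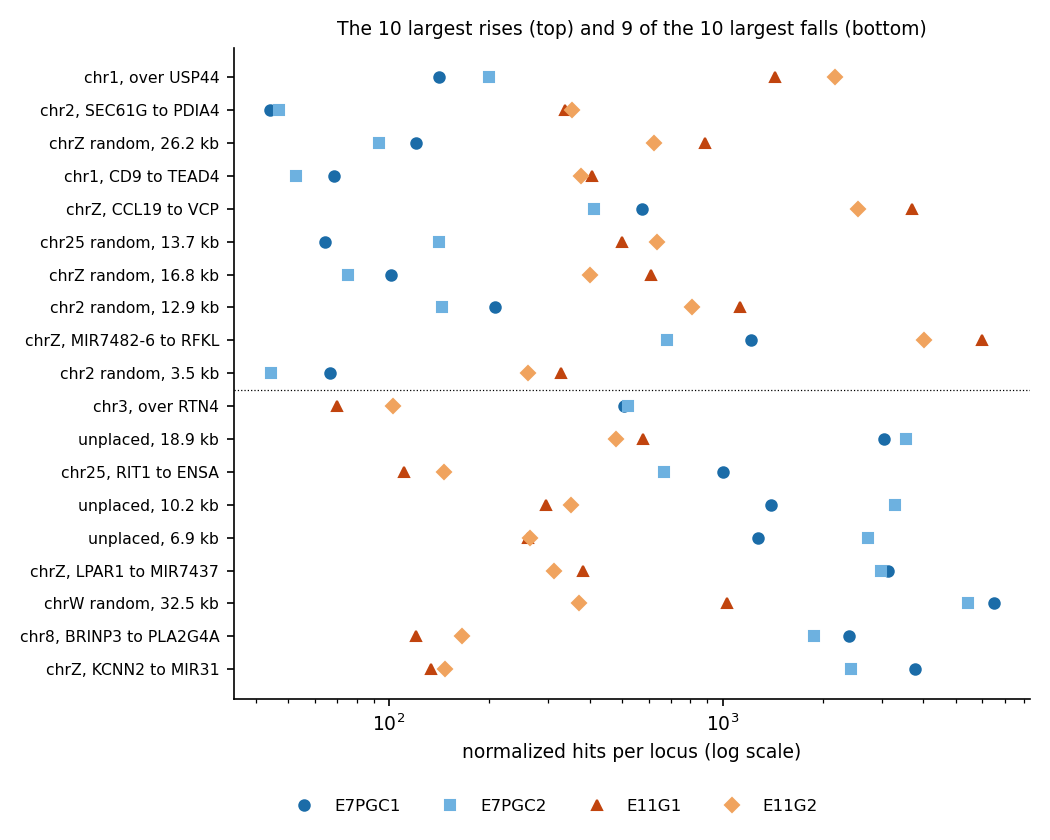
Normalized hits per library (log axis) at the 10 loci with the largest rises (top) and at 9 of the 10 with the largest falls (bottom), 1 symbol per library. In every row the 2 E7PGC symbols lie on 1 side and the 2 E11G symbols on the other, from 141 and 200 against 1432 and 2171 at USP44 to 3768 and 2428 against 134 and 147 at the locus between KCNN2 and MIR31.

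Among the falls, the largest was at chrZ:73401685-73542900, beyond the potassium channel gene KCNN2. Hits were 3768 in E7PGC1, 2428 in E7PGC2, 134 in E11G1 and 147 in E11G2. The ratio of the means was 22.0 in favour of E7PGC (log2 difference -4.42 ± 0.35 SE, adjusted p = 0.0103 by limma). This ratio also holds the large difference in called length, and stretches that were not called are not shown to be silent. In E7PGC 138339 and 136995 bp were called and 79.1% and 87.4% of the hits came from 1 strand, the plus strand. In E11G only 5803 and 7088 bp were called, and 97.9% and 95.8% of the hits came from the minus strand. The piRNAs of the 2 groups thus came from different stretches or strands of the same locus, and its 1T share was higher in E11G (60.5% and 64.2% against 51.1% and 49.4%, adjusted p = 0.0255 by limma). The lists marked 13 RFX4_1 matches in it.

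On chromosome 8, chr8:9602800-9610145 fell from 2398 and 1885 hits to 120 and 166 (log2 difference -3.90 ± 0.35 SE, adjusted p = 0.0103 by limma). It remained a minus-strand locus, with at least 98.5% of hits from that strand in each library, and its base composition did not pass a test. At chrZ:68460744-68473686, near the microRNA gene MIR7437, hits were 3129, 2986, 382 and 311 (log2 difference -3.14 ± 0.30 SE, adjusted p = 0.0103 by limma). Here the shares changed with the level, 1T from 83.5% and 85.3% to 56.4% and 53.4% and 10A from 78.2% and 79.9% to 56.5% and 46.5%, both past the test. A locus of 32539 bp on a scaffold of W had 6491, 5454, 1034 and 371 hits, and both shares fell there too, 1T by 29.6 points and 10A by 35.9 points.

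Further falls concerned named neighbourhoods. Between RIT1, a Ras-family gene, and ENSA, an inhibitor of the phosphatase PP2A, chr25:2302360-2317606 had 1001, 669, 111 and 147 hits and was dual-strand in all 4 libraries. At chr3:2521267-2532428, over the reticulon gene RTN4, hits were 506, 521, 69.8 and 103 (log2 difference -2.58 ± 0.39 SE, adjusted p = 0.0211 by limma). The main strand held 93.1% and 94.1% of them in E7PGC and 53.4% and 50.4% in E11G, a change from a plus-strand to a dual-strand locus and the largest fall in main-strand share (adjusted p = 0.0204 by limma). RTN4 itself was at 26.8 and 28.9 FPKM in E11 gonads.

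Of the 10 largest falls, 3 were on unplaced scaffolds. A locus of 18910 bp had 3046 and 3552 hits in E7PGC and 578 and 481 in E11G, and it also showed the largest fall in 10A, given below. Those of 6929 and 10199 bp had 1274, 2735, 261 and 264 hits and 1401, 3279, 296 and 352 hits. E7PGC2 was above E7PGC1 at both, and both E11G libraries were below them. At the first of these, piRNAs were rich in 1T (94.9% and 95.2% in E7PGC, 83.4% and 79.2% in E11G) and poor in 10A (4.1%, 4.2%, 11.3% and 15.7%).

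The base composition of piRNAs moved in 1 direction at many loci. For the 1T share, 342 loci passed the limma test (40.2% of the 851), 325 of them lower (38.2%) and 17 higher (2.0%) in E11G, with a median difference of -9.25 points over all loci tested. For the 10A share, 212 loci passed (24.9%), 186 lower (21.9%) and 26 higher (3.06%), with a median of -4.75 points. Median shares at the tested loci were 64.6% and 66.1% 1T in E7PGC and 54.6% and 57.9% in E11G, and 46.9% and 48.3% 10A against 42.1% and 43.2%. The number of 1T calls was 0 without E7PGC2 (322 of 921 loci with an unadjusted limma p under 0.05) and 0 without E11G1 (335 of 1001), 177 without E7PGC1 and 303 without E11G2. The number of 10A calls was 74 without E7PGC1, 52 without E7PGC2, 277 without E11G1 and 254 without E11G2.

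**Figure D5:**
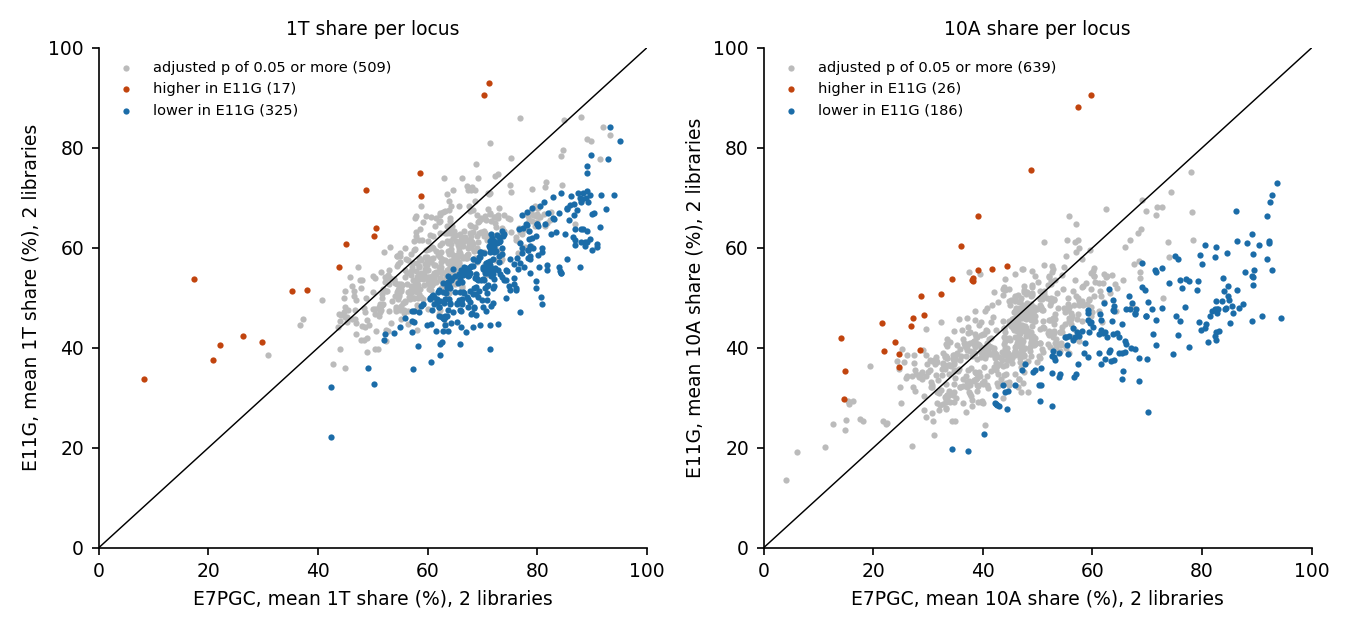
Mean 1T share (left) and 10A share (right) of the 2 E11G libraries against that of the 2 E7PGC libraries, in percent, for the 851 loci called in all 4 libraries. Most coloured points lie under the line of equal values, 325 against 17 for 1T and 186 against 26 for 10A.

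Of the 325 loci lower in 1T, 122 were also lower in 10A and 12 were higher in 10A. Among all 851 loci tested, 186 (21.9%) were lower and 26 (3.06%) higher in 10A. Of the 58 loci lower in hits, 44 (75.9%) were also lower in 1T and 40 (69.0%) lower in 10A, with median differences of -16.6 and -24.5 points. Of the 100 loci higher in hits, 40 (40.0%) were lower in 1T and 20 (20%) lower in 10A, shares close to the 38.2% and 21.9% of all loci tested. The hits and the shares come from the same libraries, and the difference between these sets was not tested. By chromosome class, 1T was lower at 262 and higher at 6 of 622 scaffold loci (median -10.4 points) and lower at 48 and higher at 6 of 170 autosomal loci (median -5.08 points). On W, 10A was lower at 5 of 7 loci, with a median of -27.9 points.

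Among the 851 loci called in all 4 libraries, high shares of both marks at 1 locus were seen mostly in E7PGC. At least 75% of hits in both libraries carried 1T at 128 loci in E7PGC and at 17 in E11G. For 10A the numbers were 65 and 2, and for both marks together 54 and 2. Chosen on these values, the 54 loci are given as a description. They held 4.30% and 5.30% of all hits in E7PGC and 1.99% and 1.87% in E11G. On scaffolds lay 44 of them, beside 622 (73.1%) of all 851 loci tested. Their median 10A share was 83.8% and 87.0% in E7PGC and 49.1% and 50% in E11G.

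At 23 loci the shares of 1T, of 10A and of the main strand were all lower in E11G by limma. Of these, 22 were on scaffolds, as were 622 (73.1%) of all 851 loci tested. Chosen on these shares, the 23 loci are given as a description, and the main-strand calls depended on every library, as given below. Their median 1T share was 87.3% and 88.7% in E7PGC and 66.9% and 67.6% in E11G, and their median 10A share was 83.5% and 86.8% against 48.6% and 49.3%. The median main-strand share was 86.8% and 88.5% against 53.5% and 54.7%. Hits passed the test at 8 of the 23, all lower, beside 58 (6.82%) lower among all 851 loci tested.

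The largest of these changes was at the unplaced locus of 18910 bp. Its 10A share was 93.8%, 95.1%, 46.5% and 45.6% in E7PGC1, E7PGC2, E11G1 and E11G2, a difference of -48.4 ± 2.89 points (SE, adjusted p = 0.00211 by limma). Its 1T share was 93.7%, 94.3%, 71.1% and 70.1%, and its main-strand share 94.4%, 95.6%, 56.0% and 55.3%. Each share was thus at least 93.7% in both E7PGC libraries, and the locus was called on the minus strand in E7PGC and dual-strand in E11G. A locus of 30298 bp and a locus of 6197 bp, also unplaced, had the next largest falls in 10A, from 89.5% and 92.3% to 45% and 47.8% and from 87.8% and 90.3% to 47.5% and 43.4%. An unplaced locus of 32789 bp had a fall of 38.3 points in the main-strand share, from 89.6% and 92.5% to 50.4% and 55.1%.

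In 1T the largest fall was at a locus of 27688 bp on a Z scaffold, from 78.9% and 82.9% to 46.0% and 51.7% (-32.1 ± 3.41 points SE, adjusted p = 0.00582 by limma). Its hits were 3086, 2493, 2714 and 2224 with overlapping groups, so the composition differed where the level did not pass the test. Its RFX4 matches had the letters, order and nearly the spacing of the last matches in chrZ:67201165-67279913, described below. Reads that fit both loci are shared between them, so the falls at these loci may not be independent of each other. An unplaced locus of 18953 bp fell from 85.6% and 90.1% to 55.2% and 57.0%. Next to the phosphoinositide phosphatase gene MTMR2, chr1:185284467-185293529 fell from 67.5% and 75.4% to 45.6% and 33.8% 1T (-31.8 ± 4.93 points SE, adjusted p = 0.00829 by limma). Its hits were 508, 417, 144 and 281, and did not pass the test.

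Rises in 1T or 10A were few. The largest rise in 1T was at chrZ:27514918-27519752, between the microRNA gene MIR101-1 and the kinase gene JAK2, from 22.3% and 12.3% to 55.3% and 52.3% (36.5 ± 4.08 points SE, adjusted p = 0.00582 by limma). Hits there rose as well, from 204 and 213 to 715 and 871, at least 99.8% of them from the plus strand in each library. At chr4:13738198-13753563, over the transmembrane protein gene TMEM164, 1T was 10.7% and 5.92% in E7PGC and 32.0% and 35.4% in E11G, with 7738, 10944, 8571 and 9394 hits in overlapping groups. In E7PGC2 this locus had 34.9 hits per mapped sequence, the highest of that library (median 0.533), so its shares there rested on relatively few RNAs. At chrZ:80109031-80126012, 1T was 49.8% and 47.8% against 67.9% and 75.2%, and 10A was 31.4% and 33.4% against 45.8% and 55.8%.

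The largest rise in 10A was at chrZ:52846346-52890917, beyond the acetylcholine receptor gene CHRNA8. Its 10A share was 64.8%, 54.5%, 89.8% and 91.3% and its 1T share 75.3%, 67.1%, 92.2% and 93.9%, so both marks became more frequent (10A 30.9 ± 4.24 points SE, adjusted p = 0.00701 by limma). Its hits were 1436, 1037, 592 and 550, and rested on 2856, 1816, 161 and 466 mapped sequences. A locus of 13482 bp on a Z scaffold showed nearly the same shares, with 10A at 63.7%, 51.1%, 87.6% and 88.8%. The third rise was at an unplaced locus of 10520 bp, where 10A went from 14.1% in both E7PGC libraries to 34.4% and 49.6%, while 1T fell from 83.4% and 80.1% to 62.5% and 48.7%.

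Loci of the highest level are described next. The top locus of E7PGC in hits was chrZ:1077290-1081879, over the ribosomal protein gene RPL17, with 45847 in E7PGC1 from only 30 mapped sequences, no call in E7PGC2, and 6758 and 8763 in E11G. The value thus rested on few RNAs. In E11G1 and E11G2 the locus also had the most hits per mapped sequence, 260 and 123 (medians 1.01 and 0.347), so its values there rested on relatively few RNAs as well. At least 99.9% of the hits were from the plus strand in each of the 3 libraries, and the 1T share was 85.6%, 84.6% and 91.6%. RPL17 was at 2149 and 2481 FPKM in E11 gonads.

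The locus with the highest mean in E11G, and the second highest in E7PGC, was chrZ:67201165-67279913, with 10549, 8214, 13042 and 10795 hits from 7458, 4022, 8539 and 20145 mapped sequences. The groups overlapped and the level did not pass the test (log2 difference 0.35 ± 0.30 SE, adjusted p = 0.443 by limma). What changed was the kind of piRNA. Its 1T share was 74.9%, 74.9%, 49.4% and 55.4%, its 10A share 71.0%, 70.8%, 49.4% and 46.3%, and its main-strand share 84.0%, 83.9%, 57.9% and 53.9%. All 3 passed (adjusted p of 0.00727, 0.00594 and 0.0294 by limma), and the locus went from bi-directional in both E7PGC libraries to dual-strand in both E11G libraries. The main-strand share can count both strands of a bi-directional locus, so its values need not refer to the same strands in the groups. It is 78749 bp long, holds 12 RFX4_1 matches and lies past the lysophosphatidic acid receptor gene LPAR1.

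The second highest locus of E11G was chr4:20777750-20788255, between the neuropeptide Y receptor gene NPY2R and the cathepsin gene CTSO. Its hits were 2710, 2141, 7385 and 14282 (log2 difference 2.09 ± 0.39 SE, adjusted p = 0.0215 by limma), at least 99.9% of them from the minus strand in every library. Neither 1T (68.7%, 73.7%, 69.6% and 72.0%) nor 10A (61.0%, 63.8%, 66.6% and 68.9%) passed the test, so here the level differed without a detected difference in composition.

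Fewer loci passed the test of main-strand share than those of hits, 1T or 10A, but fewer changes may have been detectable. In simulated data 35% of changes of 15 points were recovered in main-strand share, against 66% in 1T and 62% in 10A. The groups did not overlap in main-strand share at 500 of the 851 loci, beside 523 for hits, 648 for 1T and 560 for 10A. The main-strand share passed at 40 loci (4.7%), of which 11 (1.29%) were higher and 29 (3.41%) lower in E11G, and the median difference was -0.35 points. Where a locus was bi-directional in 1 group only, the share need not refer to the same strands. Leaving out any 1 of the 4 libraries reduced the count to 0, with between 161 and 261 loci at an unadjusted limma p under 0.05. The largest rise was at chr9:3370200-3416056, over CCDC61, a centriolar protein gene, and IMP4, a gene for ribosomal RNA processing, from 57.4% and 52.5% to 92.7% and 94.0%. Its called length was 42833 bp in E7PGC1 and 4574, 8627 and 5478 bp in the other libraries, so that different stretches were compared. At chrZ:43271563-43278627, past the histone reader gene SPIN1, the share was 50.9%, 50.8%, 82.7% and 85.6%, and at chr2:149237316-149263669, before the polarity gene SCRIB, it was 65.7%, 56.6%, 92.1% and 94.4%.

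Called length passed at 17 loci (2.0%), 6 higher (0.705%) and 11 lower (1.29%), with a median log2 difference of -0.01. Without E7PGC1, E7PGC2 or E11G2 the count was 0, with 158, 153 and 236 loci at an unadjusted limma p under 0.05, and without E11G1 it was 16. Directionality was the same in both libraries of each group at 503 of the 851 loci, and of these 370 (73.6%) had the same class in E7PGC and E11G. Among the 133 that changed, 64 went from mono-directional to dual-strand and 30 from dual-strand to mono-directional. Calls agreed at 79.8% of loci between the E7PGC libraries and at 72.3% between the E11G libraries, and at 59.2% to 60.9% across the groups. At 4 loci both groups were mono-directional on opposite strands. They were chrZ:73401685-73542900 and chrZ:80109031-80126012, described above, and chrW:3405533-3424965 and chrW:3725002-3733397. The first W locus had 321, 250, 81.4 and 64.1 hits with a 10A share of 71.0%, 69.4%, 21.8% and 32.6%, and the second 206, 197, 61.0 and 89.4 hits with 74.3%, 65.5%, 43.5% and 31.9%.

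Genes that overlapped loci were described by 3 lists. Of 247 transcripts in a table of the study, chosen by the study on these gonad libraries, transcripts overlapped 93 loci, of which 46 were tested. In hits, 5 of the 46 were higher and 0 lower in E11G, and the median log2 difference was 0.18 against 0.08 over all 851 loci. These 5 of 46 are to be read against the 11.8% of all tested loci that were higher. A second table of 137 transcripts overlapped 7 loci, of which only that over RTN4 was tested. Of 24 genes of the PIWI pathway, only PIWIL1, TDRD7, ASZ1, HENMT1, DDX4, HSP90AA1 and PARN had a transcript matched to a symbol. The others, PIWIL2 and MAEL among them, could not be placed and were not checked. Of the genes that could be placed, 2 overlapped loci. DDX4, the germ cell helicase VASA, lay under chrZ:16943106-16949732 with 87.2, 60.1, 107 and 150 hits (log2 difference 0.80 ± 0.34 SE, adjusted p = 0.17 by limma). TDRD7, which encodes a tudor protein of germ granules in mouse, lay under chrZ:70814061-70817654, called in E11G only with 122 and 155 hits.

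Loci over other genes with symbols followed both directions, and these examples were picked after their values were seen. The locus over CDC42SE2, an effector gene of CDC42, at chrZ:44790261-44799174 had 49.4, 57.1, 185 and 294 hits. That over MLNR, the motilin receptor gene, at chr1:169114625-169124019 had 327, 238, 1293 and 1343 hits. Higher in E11G was also the locus over both PARPBP, a gene for an inhibitor of homologous recombination, and PMCH (95.7, 60.7, 350 and 305 hits). So was that over TCTN3, a ciliary gene (105, 62.1, 325 and 322 hits). The locus over PLEKHJ1, at chr28:2033522-2042968, was lower, with 237, 230, 60.2 and 83.5 hits. All 5 passed the test, with adjusted p from 0.0211 to 0.0255 by limma.

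Called in E7PGC only were loci over GATA4, a transcription factor gene of gonadal somatic cells (90.4 and 111 hits), PIAS2, a SUMO ligase gene (703 and 484 hits), MAVS, an antiviral signalling gene (285 and 196 hits), and GAP43, a neuronal growth cone gene (725 and 169 hits). Called in E11G only were loci over HSF2, a heat shock factor gene (91.2 and 84.3 hits), MYCBP2, a ubiquitin ligase gene (458 and 390 hits), and PIP5K1B, a lipid kinase gene (64.6 and 161 hits). Overlap was counted without regard to strand.

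The study names 2 intervals, of which the first, PRMT8 to TSPAN9, could be placed only by its neighbour TEAD4. Within 250 kb before TEAD4 there were 6 loci. Besides the riser at chr1:75305553 described above, chr1:75423111-75430834 was called in all 4 libraries with 177, 166, 99.7 and 179 hits in overlapping groups, and its 1T share fell from 80.3% and 88.5% to 47.2% and 62.7% (adjusted p = 0.013 by limma). Nearer to TEAD4, chr1:75485176-75498319 (343 and 270 hits) and chr1:75522068-75535085 (199 and 152 hits) were called in E11G only. The other 2 were called in 3 libraries and in 1 library. In the second interval, between GADD45G, a stress response gene, and SYK, a kinase gene, with DIRAS2 placed there by the order of genes in GRCg7b, chrZ:43770653-43786234 was called in E11G only, with 397 and 304 hits, 94.2% and 87.9% of them from the plus strand.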

How the data were processed

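Small RNA was measured in 2 libraries of E7PGC and 2 of E11G, and RNA-seq in 2 libraries of E11 gonads. The authors trimmed adapters with cutadapt, mapped reads to galGal5 without mismatches (the labels name TopHat2 and Bowtie 1.2.0), removed ribosomal, transfer and microRNA reads and called clusters with an adapted proTRAC that admits dual-strand clusters, in windows of 5000 bp moved by 1000 bp with a minimum cluster of 3000 bp and reads of 24 to 34 nt. The deposited lists give normalized hits, called length, directionality and the percent of hits with 1T, with 10A and on the main strand or strands. The deposited RNA-seq values are FPKM, made by the authors with Cufflinks 2.2.1 and Cuffnorm.

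Clusters were merged at 1 bp of overlap, and clusters of 1 library within a locus were combined. Loci called in all 4 libraries were tested with limma 3.58.1 in R 4.3.3 (Benjamini-Hochberg adjustment, threshold 0.05), on log2(hits + 1), log2 length or percent. A trend was fitted for hits and length but not for the percents, and SE is that of the fit. Library values were compared by exact permutation with 2 libraries a group. Tables were made in Python 3.11.15 with pandas 2.3.3. The tests were tried on simulated data with 200 of 851 loci changed. They recovered 71.5% of changes of 2 in log2 hits, 66% of changes of 15 points in 1T, 62% in 10A and 35% in main-strand share. False calls made up from 2.94% (1T) to 6.79% (length) of the calls. The simulated loci were independent, with the same spread in both groups and as many rises as falls. The real loci need not meet these conditions, so these figures need not hold for them.

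The members and lists were chosen with earlier results of these data known. Named loci were the 10 largest rises and falls in hits among loci past the test whose groups did not overlap, the 3 highest loci of each group, the 4 highest called in 1 group only, the 3 largest rises and falls in each share, and 2 intervals that the study names. The 4 loci on opposite strands and the genes said to be picked after their values were seen stand outside that rule. Gene symbols came from RefSeq (GRCg7b) and the study's tables, for 7001 of 42501 transcripts, and genes without one are not named. Of the named loci, 1 of the 10 largest falls is not reported here. No galGal5 genome was used here. Alternatives covered the replicate block, each library left out, robust moderation, all 8 libraries, assembled chromosomes, a common density minimum, other overlaps, scalings and pseudocounts, and loci set to 0 where not called.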

Additional observations from a re-analysis of the deposited data

How the results depend on the processing

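No locus called in hits, 1T, 10A, main-strand share or length had the opposite direction in any alternative that kept it, apart from the merge at 50% of the shorter cluster, where calls were not matched. For most alternatives this was fixed in advance. The groups did not overlap at any called locus, so leaving out 1 library could not turn a direction. The replicate block, robust moderation and the fit of all 8 libraries keep the same difference. A reversal was possible only at the common density minimum, under other scalings and in hits per kb of called length. The cause of the changes below was not tested, except that settings with fewer loci test fewer. Leaving out 1 library at a time gave 0 to 305 loci for hits (158 with all), 0 to 303 for 1T (342), 52 to 277 for 10A (212), 0 for main-strand share (40) and 0 to 16 for length (17). Loci called in 1 group only then numbered 680 to 873 for E7PGC (600) and 362 to 622 for E11G (341). On assembled chromosomes alone, with 228 loci, 87 differed in hits, 63 in 1T, 58 in 10A, 28 in main-strand share (18 higher and 10 lower, against 11 and 29) and 6 in length, and 270 and 144 loci were called in E7PGC or E11G only. The library differences there were -6.21 points for 1T, -3.84 for 10A, 3.16 for the share of hits in clusters, against -8.28 with scaffolds, and -2.49 for W, with -0.25 for the percent of clusters that were dual-strand and 4.0 for the median main-strand share.

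With loci set to 0 where not called, 1063 of 3074 differed in hits (416 higher and 647 lower), and 1113 of the 2113 called in both libraries of a group (439 and 674), so more were lower than higher. At the common density minimum there were more clusters in E11G than in E7PGC, a reversal, and 34 loci differed in length, 227 loci were called in E7PGC only, and the difference in the share of hits in clusters was -4.30 points. In the loci called in all 4 libraries that difference was -0.60 and that for W -1.14. With all 8 libraries in the fit 80 loci differed in main-strand share and 12 in length (7 higher and 5 lower). Counting each cluster once, the main-strand difference was -4.70 points.

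The labels share replicate numbers, but nothing says that a number pairs libraries. The replicate differences of the groups correlated at r = 0.16 over 851 loci, which are not independent. With a replicate block, 68 loci differed in hits, 67 of them among the 158, 461 in 1T, 175 in 10A, and 0 in main-strand share and in length by limma (194 and 98 at an unadjusted p under 0.05). In hits per kb of called length, 130 of the 158 loci kept their call, and 1 of the 20 loci named for hits lost it. All 20 loci named for hits lost their call without E11G1 or without E11G2. The 6 named for 1T lost theirs without E7PGC2 or without E11G1, 1 and 2 of the 6 named for 10A lost theirs without E7PGC1 and without E7PGC2, and the 6 named for main-strand share did so under the block and without any 1 library.

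The alternatives without the RPL17 locus, for the gene lists and for the classes of loci at a common density minimum were chosen after seeing the data, and the first 2 changed no direction. The first gene list had 4 to 7 loci called in hits (5 in the report). With 2 libraries a group, 1394576 reads in E11G1 and unequal density minimums, a locus that was not called or not significant is not shown to be equal.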

Other observations

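Some loci named above were also called in E14 gonads (E14G) and in libraries labelled BC, which enter no comparison here. The locus that fell most from E7PGC to E11G, chrZ:73401685-73542900, had 3748 hits in E14G1, 273 in E14G2, and 266 and 216 in BC. The E14G libraries thus differed from each other in hits there, besides breed and instrument, and the cause was not tested. The W scaffold locus of 32539 bp had 7346 and 3261 hits in E14G and 451 and 408 in BC. The locus over USP44 had 493 and 1221 hits in E14G and no call in BC. The locus next to MTMR2, chr1:185284467-185293529, had no call in E14G1, 169 hits in E14G2 and 4347 and 4259 in BC, above all 4 libraries compared here. Of the 600 loci called in both E7PGC libraries only, 38 (6.33%) were called in both E14G and 151 (25.2%) in both BC libraries. Of the 341 called in both E11G libraries only, 77 (22.6%) were called in both E14G and 20 (5.87%) in both BC libraries. Among the 851 loci called in all 4 libraries the numbers were 675 (79.3%) and 214 (25.1%), and among the 393 with other patterns 105 (26.7%) and 109 (27.7%). The BC share of the E7PGC loci was thus near that of the shared loci, and the E14G share of the E11G loci was below theirs. Calls rested on minimums of 2.21 and 2.32 hits per kb in BC and 13.3 and 12.4 in E14G, against 7.95 to 11.8 in E7PGC and E11G. The 341 loci were also lower in hits than the shared loci, with medians of 104 and 128 against 253 and 264 in E11G1 and E11G2. The shares depend on the minimums too and are not shares of active loci. No test was made of these shares.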
